A study of Fragaria hybrid cultivar with 9 samples.

Results

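The miR171 family was followed in petals of the pink-flowered strawberry 'Sijihong', a hybrid of Fragaria and Potentilla, through PF_L (young bud), PF_Z (beginning of coloration) and PF_D (big bud). A member was any listed miRNA whose name holds miR171 or MIR171 with no further digit after it. After repeated lines had been dropped, 33 names of 1703 met this rule, and they held 31 distinct sequences of 1660. Of these 31 sequences, 16 were assigned to the 3p arm of the hairpin precursor and 12 to the 5p arm, by their name or a short motif. The other 3 (ppe-miR171a_1ss9CT, ppe-miR171e_L-2R+2 and mdm-miR171c_2ss8GA13GA) met neither criterion and are given apart, although all 3 align with the 3p strand gma-MIR171f-p3, with 1 or 3 differing bases over 19 or 21. Each stage had 3 biological replicates of petals from open-ground plants, which gave 9 small RNA libraries of 1 untreated cultivar. Petal age was not separated from petal color, since both change from stage to stage. No list of petal marker miRNAs was set, so the tissue label was not checked.

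A plant microRNA is cut from a folded precursor as a duplex of a 5p and a 3p strand, of which usually the more abundant strand is loaded into an ARGONAUTE protein and pairs with target mRNAs. In Arabidopsis and many other plants, the 3p strand of miR171 directs cleavage of mRNAs for HAIRY MERISTEM (SCL6) proteins, a branch of the GRAS transcription factors that keeps shoot meristems undifferentiated and acts in branching, chlorophyll synthesis and the change from juvenile to adult growth. The seed (bases 2 to 8 of the small RNA) serves here only to group sequences, and a shared seed was not taken to mean shared targets. In Arabidopsis the base at the 5′ end sorts small RNAs among ARGONAUTE proteins. No target mRNA was measured in the small RNA libraries.

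The sequences on which the results turned are given below, because their arms, starts and few base differences define the groups compared. They are written 5′ to 3′ with T for U, as deposited, and the capitals mark the seed. The 3p sequences come before those without an assigned arm and those of the 5p arm.
gma-MIR171f-p3: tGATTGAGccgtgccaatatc
mdm-miR171c_R+1_1ss12CT: tGATTGAGccgtgccaatatct
csi-miR171c-3p_R+4: tGATTGAGccgtgccaatatctttt
mdm-miR171a: tTGAGCCGcgtcaatatctcc
mdm-miR171j: tTGAGCCGcgccaatatcact
mdm-miR171i_1ss1TC: cGAGCCGAaccaatatcactc
ppe-miR171a_1ss9CT: tGATTGAGtcgtgccaatatc
ppe-miR171e_L-2R+2: aTTGAACCggaccaatatccc
mdm-miR171c_2ss8GA13GA: tGATTGAAccgcaccaatatc
osa-miR171d-5p_2ss12CT21AG: tGTTGGCCcggttcactcagg
osa-miR171c-5p_1ss1GA: aGATATTGgtgcggttcaatc
mdm-MIR171f-p5: tATTGGTCcggttcaataaga
mdm-MIR171p-p5_1ss14CT: aGGTATTGgcgcgtctcaatt
mtr-miR171e-5p: cGATGTTGgtgaggttcaatc
csi-miR171b-5p_1ss12TG: tGTGATATtgggtcggctcatc
ppe-MIR171e-p5: gATATTGGcacggctcaatca

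The start of a name (gma, mdm, ppe, osa, csi, mtr, vvi) gives the plant whose miRBase entry was matched: soybean, apple, peach, rice, sweet orange, barrel medic or grapevine. The ending p5 or p3 marks an arm product found beside a known precursor, L and R give bases gained or lost at the 5′ and 3′ ends, and ss gives substitutions against the miRBase entry. Of the 33 names, 9 were unmodified, 7 had changed ends only and 17 carried a substitution. The most abundant sequence was listed under 3 names (gma-MIR171f-p3, mdm-miR171g and ppe-miR171a) with the same values, and it was counted 1 time as gma-MIR171f-p3. No member shared its sequence with another family, and none of the 1629 other sequences in the table differed from a member by at most 2 bases over 18 or more bases or held the seed of gma-MIR171f-p3. Positions in the strawberry genome were not analysed here.

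The values are the normalized reads of the authors, in which 1 read, taken as the most common value above 0 in a library, was worth 0.713 to 1.27. The libraries held 751798 to 1239876 recovered miRNA reads over distinct sequences, with the lowest total in PF_Z replicate 3. A read counts 1 small RNA whole, so levels were not divided by length. A limit of 3 reads per library, which covers counting error only, stood at 2.14 to 3.82 normalized reads. Of the 31 members, 22 were above 0 in all 9 libraries, 14 reached a mean of at least 50 at 1 or more stages, 5 reached 1000, and 6 never exceeded 3 reads in any library.

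**Figure D1:**
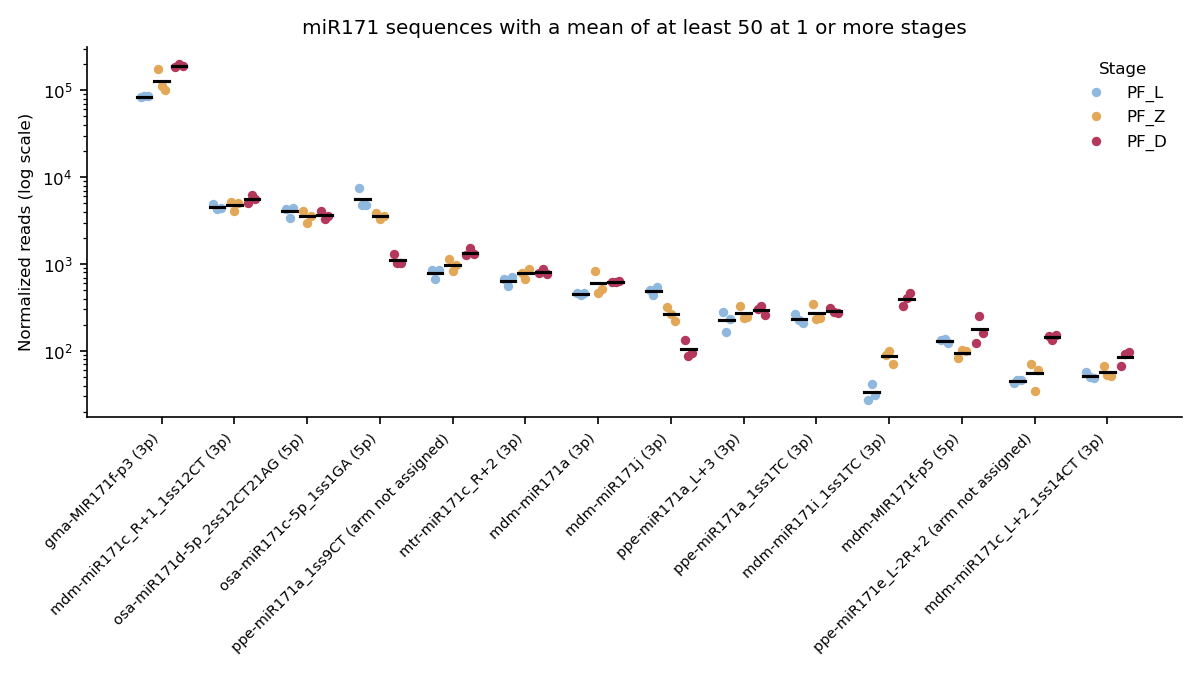
Normalized reads on a log axis for the 14 miR171 sequences that reached a mean of 50 at 1 or more stages. Each point is 1 library, colored by stage, and each black bar is the mean of 3 libraries. gma-MIR171f-p3 lay above every other member in all 9 libraries, osa-miR171c-5p_1ss1GA and mdm-miR171j were lowest in PF_D, and mdm-miR171i_1ss1TC was highest there.

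gma-MIR171f-p3, the 3p strand with the canonical miR171 seed, held most of the family at each stage. It had 82596, 85172 and 85148 normalized reads at PF_L, 173784, 112704 and 99711 at PF_Z and 182772, 201181 and 192051 at PF_D. The PF_D libraries lay above all others, and within PF_Z replicate 1 stood apart above replicates 2 and 3. The level in PF_D was 2.28 times that in PF_L (log2 fold change 1.19 ± 0.24 SE, limma adjusted p = 0.00281), and no alternative setting ended this call. In RNA of whole petals, more or fewer cells of a type and more or less of the RNA per cell cannot be told apart. The size of the difference between PF_D and PF_L depended on the scaling. The log2 fold change was 0.77 when library totals were set equal and 1.78 when reads were scaled to the valid reads of each library. The differences of PF_Z from PF_L (log2 fold change 0.57 ± 0.24 SE, limma adjusted p = 0.299) and of PF_D from PF_Z (log2 fold change 0.62 ± 0.24 SE, limma adjusted p = 0.172) did not pass the test. Without PF_Z replicate 1 PF_D differed from PF_Z, with a limma adjusted p of 0.00565 and a range of 0.00565 to 0.437 over the 19 alternatives.

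The family total was also highest at PF_D. It was 101795 ± 1163 normalized reads at PF_L, 144234 ± 41005 at PF_Z and 206799 ± 9486 at PF_D (SD, n = 3 each). The family took 10.1% to 11.4% of all listed normalized reads at PF_L, 14.1% to 15.9% at PF_Z and 16.0% to 17.4% at PF_D, with no overlap between stages. gma-MIR171f-p3 held rank 4 among all listed sequences in the 3 PF_L libraries, rank 2 or 3 in the PF_Z libraries and rank 2 in the PF_D libraries. Its share of the family was 80.4% to 84.8% at PF_L, 86.5% to 90.9% at PF_Z and 92.6% to 93.0% at PF_D. The other 15 sequences of the 3p arm together had 8298 ± 655 normalized reads in PF_D against 6759 ± 474 in PF_L, a ratio of 1.23 that became 0.922 with equal library totals.

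Between PF_D and PF_L, 28 members were tested, and 11 were called by limma at an adjusted p under 0.05, of which 6 were higher and 5 lower in PF_D. Over all 1554 tested miRNAs, 16.3% were called, 8.11% higher and 8.17% lower. The median log2 fold change was 0.44 over the tested members and -0.28 over all tested miRNAs. By arm, 2 of 16 tested 3p members were higher and 2 lower, 1 of 9 tested 5p members was higher and 3 lower, and the 3 members without an assigned arm were higher. When these 3, which align with the 3p strand, were counted as 3p, a choice made after the data were seen, 5 of 19 tested 3p members were higher and 2 lower. In 14 members the PF_D libraries all lay above the PF_L libraries and in 6 all below, beside 15.8% and 20.5% of all tested miRNAs. With scaling to valid reads the calls became 16 higher and 4 lower, so the balance of directions depended on the scaling. That scaling divides PF_L values by 1.10 to 1.44 and PF_D values by 0.803 to 0.818, which raises PF_D over PF_L for every miRNA. The share called over all tested miRNAs is not given for it, so these 2 counts are not read as a result about the members. The other 3 members were not above 0 in at least 3 libraries and were not tested, osa-miR171g_L-2_1ss12AT passed this filter while at 0 in all PF_L libraries, and the count and median are descriptions.

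**Figure D2:**
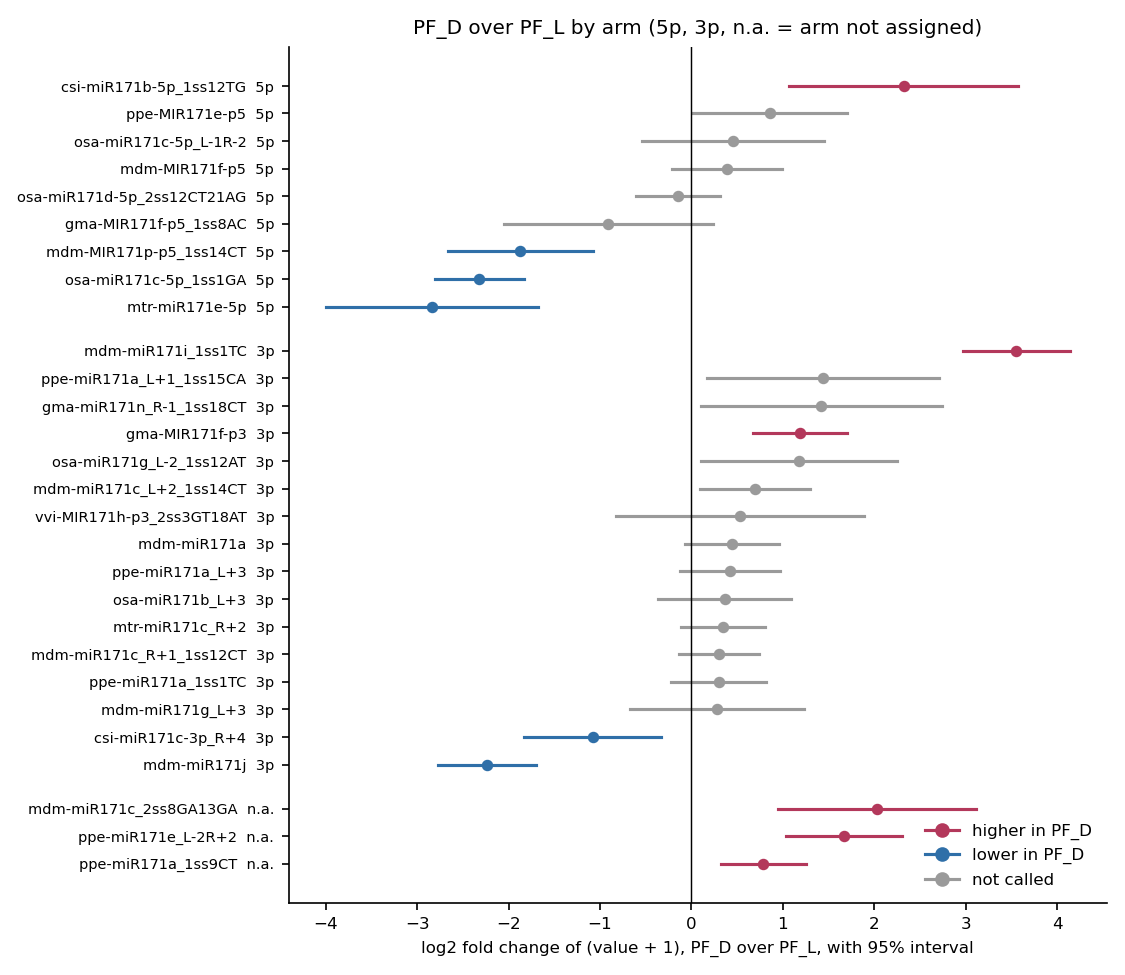
Change between PF_D and PF_L for the 28 tested miR171 sequences, grouped by arm, as the limma log2 fold change of (value + 1), PF_D over PF_L. Points are estimates and lines 95% intervals. Red marks the 6 sequences called higher in PF_D, blue the 5 called lower and gray those not called, and mdm-miR171i_1ss1TC at 3.55 lies farthest right and mtr-miR171e-5p at -2.84 farthest left.

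The sum of the 5p arm, in contrast, was lowest at PF_D. Its 12 sequences together had 9895 ± 1899 normalized reads at PF_L, 7288 ± 834 at PF_Z and 4986 ± 517 at PF_D (SD, n = 3 each). The 5p arm made up 8.29% to 11.7% of the family at PF_L, 4.26% to 6.30% at PF_Z and 2.11% to 2.82% at PF_D, without overlap between stages. The size of this difference depended on the scaling. With scaling to valid reads the log2 fold change of PF_D over PF_L was -0.37 in place of -0.99, the PF_D libraries still lay below the PF_L libraries, and the PF_D and PF_Z libraries overlapped. These sums are descriptions and were not tested.

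Most of this difference lay in osa-miR171c-5p_1ss1GA, a 5p strand that starts with A. It had 7460.0, 4735 and 4758 normalized reads at PF_L, 3887, 3335 and 3570.1 at PF_Z and 1293, 1018 and 1026 at PF_D. All PF_D libraries lay below all others, and PF_L replicate 1 stood above the other PF_L libraries. The level was lower in PF_D than in PF_L (log2 fold change -2.32 ± 0.23 SE, limma adjusted p = 2.04e-06) and lower in PF_D than in PF_Z (log2 fold change -1.70 ± 0.23 SE, limma adjusted p = 2.16e-04). Both calls held in every alternative that was run. The difference between PF_Z and PF_L did not pass (log2 fold change -0.62 ± 0.23 SE, limma adjusted p = 0.225), although the PF_Z libraries lay below all PF_L libraries.

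The other abundant 5p strand, osa-miR171d-5p_2ss12CT21AG, had 4315, 3386 and 4400.0 normalized reads at PF_L, 4098, 2970.0 and 3529.7 at PF_Z and 4090.5, 3255 and 3573 at PF_D. The 3 stages overlapped. The difference between PF_D and PF_L was not detected (log2 fold change -0.14 ± 0.22 SE, limma adjusted p = 0.690, 95% interval -0.61 to 0.32). The 5p strands changed places in the order of levels. The ratio of osa-miR171c-5p_1ss1GA to osa-miR171d-5p_2ss12CT21AG within a library was 1.40 ± 0.324 at PF_L, 1.03 ± 0.0883 at PF_Z and 0.305 ± 0.0158 at PF_D (SD, n = 3 each). In PF_L the 2nd to the 4th most abundant members, osa-miR171c-5p_1ss1GA, mdm-miR171c_R+1_1ss12CT and osa-miR171d-5p_2ss12CT21AG, each overlapped with the next. In PF_D the same places were held by mdm-miR171c_R+1_1ss12CT, osa-miR171d-5p_2ss12CT21AG and ppe-miR171a_1ss9CT, whose libraries did not overlap with each other, whereas ppe-miR171a_1ss9CT overlapped with osa-miR171c-5p_1ss1GA, the next member.

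The ratio of osa-miR171d-5p_2ss12CT21AG, the 5p strand with the highest mean over all libraries, to gma-MIR171f-p3 does not depend on library scaling. The log2 ratio averaged -4.40 ± 0.223 at PF_L, -5.16 ± 0.303 at PF_Z and -5.73 ± 0.235 at PF_D (SD, n = 3 each). The difference was -1.33 between PF_D and PF_L, -0.76 between PF_Z and PF_L and -0.57 between PF_D and PF_Z. In each of these 3 comparisons the libraries did not overlap, and the two-sided exact permutation test gave p = 0.10, also after Benjamini-Hochberg adjustment over the 3 comparisons. An exact permutation test of 3 libraries against 3 cannot go below p = 0.10.

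Strands were also compared as the duplexes they could form with overhangs of 2 bases at both 3′ ends, as a Dicer product has. Pairing was computed from the sequences only. osa-miR171d-5p_2ss12CT21AG paired in this way with gma-MIR171f-p3 through 15 base pairs, 2 G-U pairs and 2 mismatches. osa-miR171c-5p_1ss1GA paired with mdm-miR171a through 16 base pairs, 3 G-U pairs and no mismatch, and with mdm-miR171j through 16 base pairs, 2 G-U pairs and 1 mismatch. Both of these 3p partners carry the seed TGAGCCG and start 3 bases after gma-MIR171f-p3, and over the bases shared with it up to its 3′ end both differ in T12C and mdm-miR171a also in C14T (positions counted from 1 at the 5′ end of gma-MIR171f-p3, whose base is given first).

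The courses of both possible 3p partners differed. mdm-miR171j had 499, 435 and 544 normalized reads at PF_L, 320.1, 267 and 222 at PF_Z and 133, 88.0 and 94.3 at PF_D. No library of a later stage reached the lowest library of an earlier stage. mdm-miR171j was lower in PF_D than in PF_L (log2 fold change -2.24 ± 0.25 SE, limma adjusted p = 1.12e-05) and than in PF_Z (log2 fold change -1.36 ± 0.25 SE, limma adjusted p = 0.00364), and the call against PF_Z was lost when only these stages were fitted (adjusted p = 0.0649, range 3.33e-04 to 0.0649). mdm-miR171a had 470.2, 435 and 469 normalized reads at PF_L, 828, 462 and 517 at PF_Z and 618, 619.5 and 635 at PF_D. Its PF_D libraries lay above the PF_L libraries, but the difference did not pass (log2 fold change 0.45 ± 0.24 SE, limma adjusted p = 0.222, 95% interval -0.07 to 0.96).

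Within libraries, mdm-miR171a and mdm-miR171j stood at a ratio of 0.935 ± 0.0685 at PF_L, 2.21 ± 0.440 at PF_Z and 6.14 ± 1.29 at PF_D. The ratio of osa-miR171c-5p_1ss1GA to mdm-miR171j was 11.5 ± 3.14 at PF_L, 13.6 ± 2.19 at PF_Z and 10.7 ± 0.911 at PF_D, and PF_D overlapped with PF_L. The ratio of osa-miR171c-5p_1ss1GA to mdm-miR171a was 12.3 ± 3.11 at PF_L, 6.27 ± 1.37 at PF_Z and 1.78 ± 0.267 at PF_D, with no overlap between stages (SD, n = 3 each). These ratios were chosen after the values were seen and are given without a test, and whether the strands come from the same precursor was not tested.

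**Figure D3:**
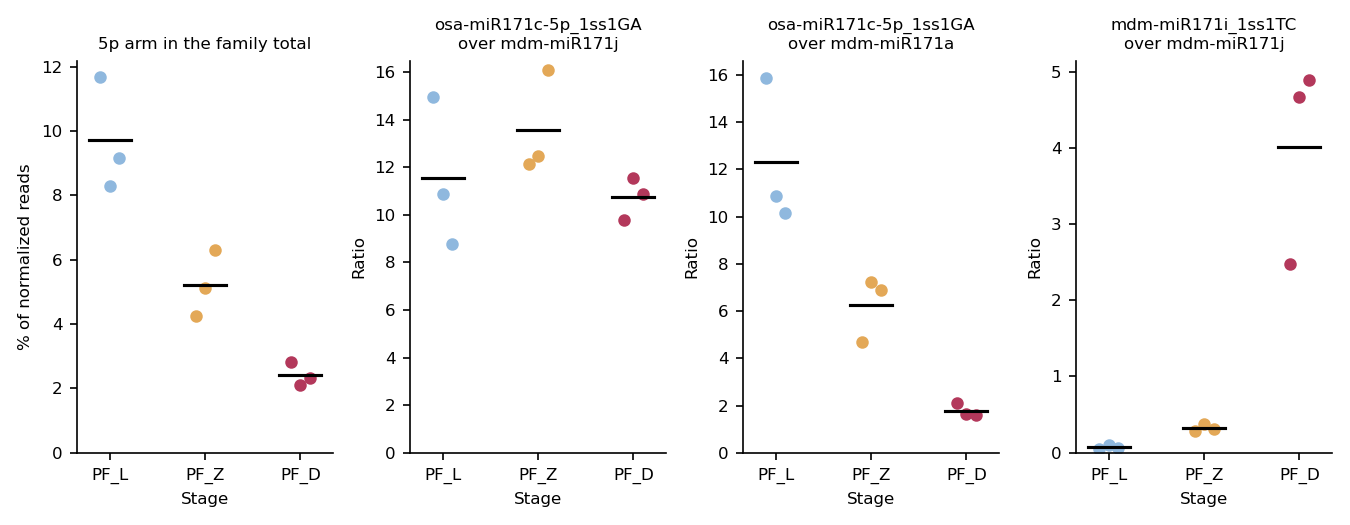
Ratios within libraries across PF_L, PF_Z and PF_D, each on an axis from 0. Points are libraries and black bars means of 3. The 5p share of the family and the ratio of osa-miR171c-5p_1ss1GA to mdm-miR171a were lowest in PF_D, the ratio of osa-miR171c-5p_1ss1GA to mdm-miR171j overlapped between PF_D and PF_L, and the ratio of mdm-miR171i_1ss1TC to mdm-miR171j was highest in PF_D.

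Further 5p strands were scarce. mdm-MIR171p-p5_1ss14CT, which could pair with mdm-miR171a and mdm-miR171j through 16 base pairs each, had 61.7, 33.5 and 33.8 normalized reads at PF_L, 41.3, 31.6 and 33.6 at PF_Z and 11.5, 6.77 and 14.9 at PF_D. It was lower in PF_D than in PF_L (log2 fold change -1.87 ± 0.37 SE, limma adjusted p = 0.00244) and than in PF_Z (log2 fold change -1.65 ± 0.37 SE, limma adjusted p = 0.0168), and the call against PF_Z was lost without PF_D replicate 2 (adjusted p = 0.0824) and when only these stages were fitted (adjusted p = 0.0998, range 0.00575 to 0.0998). mtr-miR171e-5p had 18.5, 21.8 and 15.7 normalized reads at PF_L, 6.52, 6.53 and 7.35 at PF_Z and 3.82, 0 and 3.20 at PF_D. The PF_D values rest on 0 to 3 reads per library, so only the direction is given, which was lower in PF_D than in PF_L (limma adjusted p = 0.00197).

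mdm-MIR171f-p5, which could pair with gma-MIR171f-p3, had 132, 136 and 125 normalized reads at PF_L, 83.7, 103 and 101 at PF_Z and 122, 254 and 161 at PF_D. Its PF_D libraries spread widely and overlapped with PF_L, and no difference passed the test (log2 fold change 0.39 for PF_D over PF_L, limma adjusted p = 0.378). csi-miR171b-5p_1ss12TG had 1.76, 0.713 and 1.65 normalized reads at PF_L, 6.52, 13.1 and 2.10 at PF_Z and 12.7, 16.9 and 5.33 at PF_D. It was higher in PF_D than in PF_L (log2 fold change 2.32 ± 0.60 SE, limma adjusted p = 0.0136), but the PF_L values rest on 1 or 2 reads, and the call was lost without PF_D replicate 2 (adjusted p = 0.0623, range 0.00428 to 0.0623).

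ppe-MIR171e-p5 is the exact reverse complement of gma-MIR171f-p3 over 21 bases, at 0.0130% of its mean level. It had 16.8, 15.0 and 13.2 normalized reads at PF_L, 8.70, 5.45 and 12.6 at PF_Z and 31.9, 19.2 and 35.2 at PF_D. The lowest values were those of PF_Z. It was higher in PF_D than in PF_Z (log2 fold change 1.61 ± 0.40 SE, limma adjusted p = 0.0316). This call was lost without PF_Z replicate 2 (adjusted p = 0.106), PF_D replicate 1 (0.0748) or PF_D replicate 3 (0.146), with equal library totals (0.127) and with only these stages fitted (0.133), and the range over the alternatives was 0.00776 to 0.146.

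Among the 3p strands with a later start, mdm-miR171i_1ss1TC changed most. It starts 4 bases after gma-MIR171f-p3 and over the bases they share differs from it in T5C, T12A and G13A. It had 27.3, 41.4 and 31.3 normalized reads at PF_L, 90.2, 100.2 and 70.3 at PF_Z and 327, 411 and 462 at PF_D. The libraries of each stage lay above all those of the stage before. The level in PF_D was 11.99 times that in PF_L (log2 fold change 3.55 ± 0.28 SE, limma adjusted p = 1.19e-07) and 4.60 times that in PF_Z (log2 fold change 2.19 ± 0.28 SE, limma adjusted p = 9.91e-05), and both calls held in every alternative.

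mdm-miR171i_1ss1TC was also the only member called between PF_Z and PF_L (log2 fold change 1.36 ± 0.28 SE, limma adjusted p = 0.0145). In that comparison 1.16% of all tested miRNAs were called, 0.579% higher and 0.579% lower. The call was lost without PF_L replicate 1 (adjusted p = 0.126), PF_L replicate 3 (0.111) or PF_Z replicate 2 (0.0865), and with only these stages fitted (0.0644), and the range over the alternatives was 0.00979 to 0.126. Relative to mdm-miR171j, which has another seed, the level was 0.0692 ± 0.0225 at PF_L, 0.324 ± 0.0469 at PF_Z and 4.01 ± 1.34 at PF_D (SD, n = 3 each). mdm-miR171i_1ss1TC was above mdm-miR171j in all PF_D libraries and below it in all PF_L and PF_Z libraries.

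Of the 3 sequences without an assigned arm, ppe-miR171e_L-2R+2 starts 2 bases after gma-MIR171f-p3 and over the bases they share differs from it in G8A, T12G and G13A. It had 42.3, 46.4 and 46.2 normalized reads at PF_L, 71.7, 34.9 and 59.8 at PF_Z and 148, 135 and 151 at PF_D. The PF_D libraries lay close together above all others. It was higher in PF_D than in PF_L (log2 fold change 1.67 ± 0.30 SE, limma adjusted p = 0.00113) in every alternative, and higher in PF_D than in PF_Z (log2 fold change 1.43 ± 0.30 SE, limma adjusted p = 0.00839). The call against PF_Z was lost without PF_Z replicate 2 (adjusted p = 0.0544) or PF_D replicate 3 (0.0633), with equal library totals (0.0835) and with only these stages fitted (0.0998, range 0.00335 to 0.0998).

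mdm-miR171c_2ss8GA13GA, which differs from gma-MIR171f-p3 in G8A, T12C and G13A, had 0.882, 2.14 and 1.65 normalized reads at PF_L, 3.26, 6.53 and 4.20 at PF_Z and 12.7, 5.64 and 10.7 at PF_D. It was higher in PF_D than in PF_L (log2 fold change 2.03 ± 0.51 SE, limma adjusted p = 0.0117), with at most 10 reads in any library. The call was lost without PF_L replicate 1 (adjusted p = 0.0608) or PF_D replicate 1 (0.0541, range 0.00319 to 0.0608).

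Between PF_D and PF_Z, 6 members were called, 3 higher (mdm-miR171i_1ss1TC, ppe-miR171e_L-2R+2 and ppe-MIR171e-p5) and 3 lower (osa-miR171c-5p_1ss1GA, mdm-miR171j and mdm-MIR171p-p5_1ss14CT) in PF_D. Over all tested miRNAs 3.67% were called in this comparison, 2.64% higher and 1.03% lower. Without overlap between libraries, 7 members lay higher and 5 lower in PF_D than in PF_Z, beside 9.59% and 10.4% of all tested miRNAs. Between PF_Z and PF_L the libraries of 4 members lay higher and of 5 lower in PF_Z, beside 9.07% and 9.59%.

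Many members aligned with gma-MIR171f-p3 at the same start. The word form is used here for alignment only, and whether such sequences share a precursor was not tested. The 7 sequences that start at its first base held 89.0% of the family at PF_L, 94.0% at PF_Z and 96.8% at PF_D. mdm-miR171c_R+1_1ss12CT carries 1 added T at the 3′ end, and this makes it 22 nucleotides long, a length known in Arabidopsis for miRNAs that start secondary small RNA synthesis. It had 4859.5, 4293 and 4468 normalized reads at PF_L, 5176, 4118 and 4978 at PF_Z and 5055, 6188 and 5576 at PF_D. The PF_D libraries lay above the PF_L libraries by a narrow margin, and the difference was not detected (log2 fold change 0.30 ± 0.21 SE, limma adjusted p = 0.339).

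mtr-miR171c_R+2, in which the last base is C21T and 2 further T follow, had 665, 559.6 and 702 normalized reads at PF_L, 797, 669.8 and 874 at PF_Z and 785, 887 and 771 at PF_D. Its differences did not pass (log2 fold change 0.35 ± 0.22 SE, limma adjusted p = 0.300 for PF_D over PF_L). csi-miR171c-3p_R+4 carries 4 added T and had 49.7, 32.1 and 44.9 normalized reads at PF_L, 25.5, 25.05 and 52.5 at PF_Z and 17.8, 18.4 and 21.3 at PF_D. It was lower in PF_D than in PF_L (log2 fold change -1.08 ± 0.36 SE, limma adjusted p = 0.0470). This call was lost without PF_L replicate 1 (adjusted p = 0.171), PF_L replicate 3 (0.145) or PF_D replicates 1, 2 or 3 (0.0942, 0.0956 and 0.0801), without the filter on low values (0.0515) and with scaling to valid reads (0.364, range 0.0194 to 0.364).

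As a percentage of gma-MIR171f-p3 in the same library, which no scaling alters, the form with 1 added T stood at 5.39 ± 0.440% at PF_L, 3.87 ± 1.02% at PF_Z and 2.92 ± 0.155% at PF_D. The form with 2 added bases stood at 0.762 ± 0.0918%, 0.643 ± 0.213% and 0.424 ± 0.0204% in the same order of stages. The form with 4 added T stood at 0.0502 ± 0.0115%, 0.0299 ± 0.0201% and 0.01001 ± 0.000992% (SD, n = 3 each). For all 3 forms the PF_D libraries lay below the PF_L libraries. The ratio to gma-MIR171f-p3 was lower in PF_D than in PF_L without overlap in 15 of the 18 other members with a mean of at least 10 over all libraries, and these 3 forms are among the 15. gma-MIR171f-p3 itself was 2.28 times as high in PF_D as in PF_L, beside a median log2 fold change of -0.28 over all tested miRNAs. The share of all tested miRNAs with a lower ratio was not computed, so this count is not read as a trait of the members. The 2 members whose percentage was higher in PF_D were mdm-miR171i_1ss1TC and ppe-miR171e_L-2R+2.

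**Figure D4:**
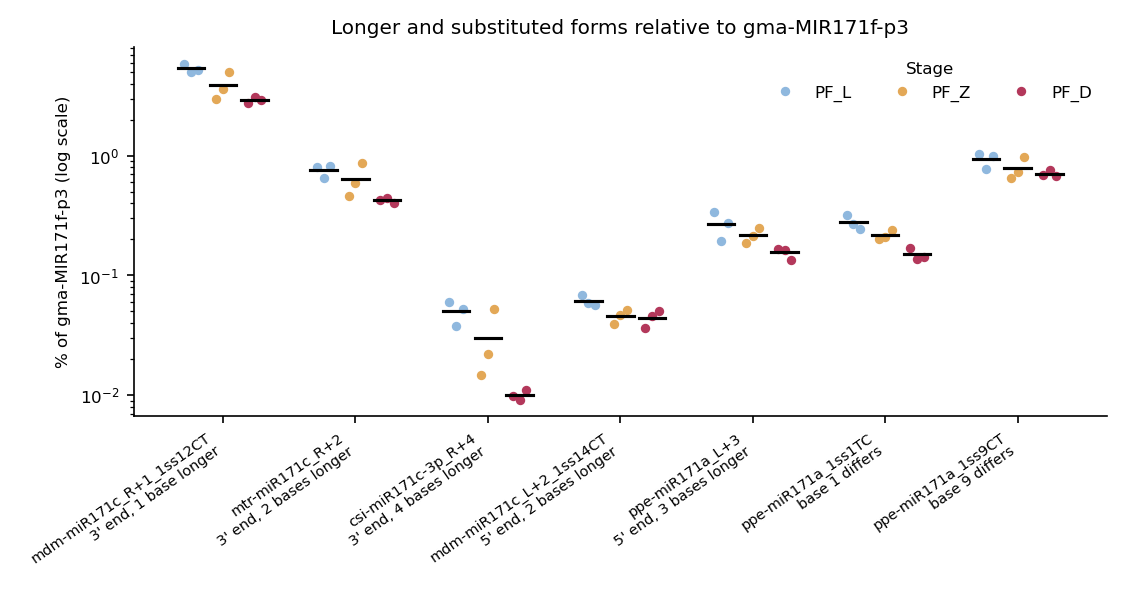
Longer and substituted forms as a percentage of gma-MIR171f-p3 in the same library, on a log axis. Points are libraries colored by stage and black bars means of 3. For each of these 7 forms the PF_D libraries lay below the PF_L libraries, and csi-miR171c-3p_R+4 had the widest distance, at 0.01001% in PF_D and 0.0502% in PF_L. The denominator, gma-MIR171f-p3, was itself higher in PF_D than in PF_L.

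Forms longer at the 5′ end have a shifted seed. ppe-miR171a_L+3, with TTC before the start of gma-MIR171f-p3, had 281, 164.8 and 235 normalized reads at PF_L, 326, 242 and 248 at PF_Z and 306, 329 and 261 at PF_D. mdm-miR171c_L+2_1ss14CT, with GG before it, had 56.9, 50.3 and 48.2 normalized reads at PF_L, 67.9, 52.3 and 50.9 at PF_Z and 66.9, 92.5 and 97.0 at PF_D. Neither passed the test between PF_D and PF_L (log2 fold changes 0.42 and 0.70, limma adjusted p = 0.283 and 0.105). osa-miR171b_L+3 (CTA) had 24.3, 17.1 and 19.4 normalized reads at PF_L, 23.4, 15.2 and 25.2 at PF_Z and 22.7, 31.0 and 25.05 at PF_D. mdm-miR171g_L+3 (GAT) had 7.94, 8.56 and 21.4 normalized reads at PF_L, 7.61, 18.5 and 10.5 at PF_Z and 14.02, 16.9 and 11.7 at PF_D, and the stages of both overlapped.

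Among the forms of gma-MIR171f-p3 with the same length and 1 changed base, ppe-miR171a_1ss9CT (C9T) had 849, 667 and 847 normalized reads at PF_L, 1140.3, 828 and 970.3 at PF_Z and 1257, 1522 and 1294 at PF_D. It was higher in PF_D than in PF_L (log2 fold change 0.79 ± 0.22 SE, limma adjusted p = 0.0224). This call was lost without PF_L replicates 1, 2 or 3 (adjusted p = 0.0558, 0.101 and 0.0629), without PF_D replicates 2 or 3 (0.0812 and 0.0569) and with equal library totals (0.242, range 0.00116 to 0.242). Its level was 0.936 ± 0.133% of gma-MIR171f-p3 at PF_L, 0.788 ± 0.165% at PF_Z and 0.706 ± 0.0444% at PF_D. ppe-miR171a_1ss1TC (T1C) had 266, 227 and 209.9 normalized reads at PF_L, 352, 234 and 238 at PF_Z and 312, 278 and 274 at PF_D, and no difference passed (log2 fold change 0.30 for PF_D over PF_L, limma adjusted p = 0.424). Whether misread bases of the abundant sequence add to either form was not tested.

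In all, 8 of the 14 members with a mean of at least 50 were not called between PF_D and PF_L, with log2 fold changes of -0.14 to 0.70. The sign of these differences turned with the scaling in 5 of them. With equal library totals the log2 fold change was -0.11 for mdm-miR171c_R+1_1ss12CT, -0.07 for mtr-miR171c_R+2, -0.11 for ppe-miR171a_1ss1TC and -0.03 for mdm-MIR171f-p5, and with scaling to valid reads it was 0.45 for osa-miR171d-5p_2ss12CT21AG. With scaling to valid reads all of the 8 except osa-miR171d-5p_2ss12CT21AG were called higher in PF_D than in PF_L (limma adjusted p = 0.00866 to 0.0372). That scaling raises PF_D over PF_L for every miRNA, and the share called over all tested miRNAs is not given for it. These added calls are therefore not read as a result about the members. The remaining members were scarce. In 10 sequences every stage mean lay under 10 normalized reads, and no library held more than 11 recovered reads of any of them. Besides mdm-miR171c_2ss8GA13GA, described above, those that led a seed group of their own were ppe-miR171a_L+1_1ss15CA, vvi-MIR171h-p3_2ss3GT18AT, osa-miR171g_L-2_1ss12AT, mtr-MIR171a-p5_1ss19TC and csi-miR171f-5p. ppe-miR171a_L+1_1ss15CA had 0.882, 0.357 and 1.24 normalized reads at PF_L, 1.09, 0.545 and 2.62 at PF_Z and 5.10, 6.21 and 1.60 at PF_D. vvi-MIR171h-p3_2ss3GT18AT had 1.76, 0 and 0.825 normalized reads at PF_L, 4.35, 1.09 and 0 at PF_Z and 1.27, 1.13 and 2.13 at PF_D. Neither passed the test in any comparison.

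osa-miR171g_L-2_1ss12AT was seen in PF_Z replicate 3 and in PF_D replicates 1 and 2 only, with 1 or 2 reads each. mtr-MIR171a-p5_1ss19TC had 3 reads in PF_Z replicate 3 and none elsewhere. csi-miR171f-5p did not exceed 1 read in a library. At these depths the absence of a sequence from a library was not distinguishable from a low level.

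Of the miRNA families related to miR171 by sequence, target or place of action, miR170, miR479 and miR165 had no listed name. The others were miR164, which targets CUC genes at organ boundaries, miR166, which targets HD-ZIP III genes of the meristem, miR394, which targets the F-box gene LCR, and miR156, which targets SPL genes. Of their 69 tested names, 15 were higher and 7 lower in PF_D than in PF_L, and the share called, 31.9%, stood beside the 16.3% over all miRNAs. miR156 contributed most, with 11 of 26 tested names higher and 1 lower. In miR164, 1 of 12 was higher and 3 lower, in miR166, 2 of 20 were higher and 2 lower, and in miR394, 1 of 11 was higher and 1 lower. Between PF_D and PF_Z 2 of the 69 were higher and 1 lower, a share of 4.35% beside 3.67% over all tested miRNAs. Between PF_Z and PF_L 2 were called, both higher in PF_Z, a share of 2.9% beside 1.16%. Names within a family can share reads, so these counts are not counts of independent miRNAs.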

How the data were processed

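The 9 libraries came from total RNA of petals (TruSeq small RNA kit, 50-base single-end reads, HiSeq). The authors removed adapters, low-complexity and repeat reads and other RNA classes through the ACGT101-miR pipeline, kept 18 to 25 nucleotides, searched miRBase 22.0 and placed precursors on the Fragaria vesca genome. The deposited signal is a normalized read count whose formula is not given in the sources used here. Its most common value above 0 in a library was taken as 1 read. Within 0.01 read, 68.7% to 72.0% of the values above 0 were whole multiples and 97.9% to 99.0% were multiples of 0.5 read. Since multiples of 0.5 are not whole reads, the table was not treated as counts and no count model was run. The paper and the labels name different RNA extraction reagents.

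Of 1876 lines, 173 repeats were dropped, 2 of them from miR171. Stages were compared with limma 3.58.1 (R 4.3.3) with a trended prior on log2(value + 1), all 9 libraries in 1 fit. The 1554 names above 0 in at least 3 libraries were tested, two-sided, with Benjamini-Hochberg adjustment over all of them. Fold changes on this scale understate changes of scarce sequences. Ratios were tested by exact permutation. Code was tested on simulated data.

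An arm was taken from the name, otherwise 3p where the sequence held GAGCCG and 5p where it held GGTTCA. Named members had a mean of at least 50 at a stage, or were called with a mean of at least 10, or led an arm or a seed group. Alternatives covered the pseudocount, filter, scaling, stages fitted, repeated sequences, replicate block, arm rule and leaving out each library. Members and lists were chosen with earlier results of these data known. The degradome, mRNA and qRT-PCR data were not analysed here. Ratios, pairings and figures were made in Python 3.11.15 (matplotlib 3.10.9, numpy 2.4.6, pandas 2.3.3).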

Additional observations from a re-analysis of the deposited data

How the results depend on the processing

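Of the 18 calls of members over the 3 comparisons, 9 held under all 19 alternatives that were run, and no call changed direction. The counts that follow are of members only, and the share called over all tested miRNAs is not given for the alternatives. Between PF_D and PF_L the 11 calls became 20 (16 higher and 4 lower) with scaling to valid reads, which 10 uncalled members joined, and 8 to 11 when 1 library was left out. Between PF_D and PF_Z the 6 calls became 2 with only these stages fitted and 4 to 8 when 1 library was left out. Between PF_Z and PF_L the 1 call became 0 with only these stages fitted and 0 to 1 when 1 library was left out, with 0 without PF_L replicate 1, PF_L replicate 3 or PF_Z replicate 2.

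The log2 fold change of the 3p arm total in PF_D over PF_L was 1.14, 0.72 with equal library totals, 1.72 with valid reads and 1.10 to 1.17 when 1 library was left out. That of the 5p arm total was -0.99, -1.40 with equal totals, -0.37 with valid reads and -1.10 to -0.83 when 1 library was left out. Counting the 3 unassigned members as 3p, an alternative chosen after seeing the data, moved the 3p value by less than its spread. The log2 ratio of the most abundant 5p to the most abundant 3p member differed by -1.33 between PF_D and PF_L, by -2.11 when arm totals were used and by -1.46 to -1.22 when 1 library was left out. The cause of these shifts was not tested.

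Leaving out 1 library added a call for 4 results: gma-MIR171f-p3 and gma-miR171n_R-1_1ss18CT between PF_D and PF_Z without PF_Z replicate 1 (limma adjusted p = 0.00565 and 0.0205), mdm-MIR171f-p5 between PF_D and PF_Z without PF_D replicate 1 (0.0409), and osa-miR171g_L-2_1ss12AT between PF_D and PF_L without PF_D replicate 3 (0.0314). osa-miR171g_L-2_1ss12AT was at 0 in all PF_L libraries and in PF_D replicate 3, and had 1 or 2 reads where it was seen. It passed the filter only through PF_Z and PF_D libraries, so its added call is not read as a difference between stages. Count models were not run, because 68.7% to 72.0% of the values were whole reads and most others odd multiples of 0.5 read.

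Replicate numbers are shared between stages, but same-numbered libraries deviated together by an r of only -0.0221 to 0.123 over 9 pairs, against -0.106 to 0.103 over 18 pairs with different numbers. With the replicate block the numbers of member calls were 11 between PF_D and PF_L, 1 between PF_Z and PF_L and 6 between PF_D and PF_Z, as without it. Low depth limits members under about 10 reads, whose reads carry no molecular identifiers.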

Other observations

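By length, the 18 sequences of 21 nucleotides held 94.6% of the family at PF_L, 95.9% at PF_Z and 96.7% at PF_D. The 3 sequences of 22 nucleotides held 4.46%, 3.30% and 2.72% in the same order. By first base, the 17 sequences with T, the base preferred by AGO1 in Arabidopsis, held 94.0% at PF_L, 97.1% at PF_Z and 99.0% at PF_D. The 3 sequences with A, preferred by AGO2 in Arabidopsis, held 5.64%, 2.56% and 0.613%. Of this, osa-miR171c-5p_1ss1GA made up 98.5% at PF_L, 97.5% at PF_Z and 87.7% at PF_D.

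The members carried 21 different seeds. The 6 with GATTGAG had 90553 normalized reads on average at PF_L, 135559 at PF_Z and 200087 at PF_D, and the 3 with TGAGCCG had 953.7, 874.9 and 738.6. These values are descriptions and were not tested.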
